A study of Mus musculus with 16 samples.

Results

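Integrins are receptors that hold cells to the matrix or to other cells, each built from an alpha and a beta subunit. Laminins are trimers of an alpha, a beta and a gamma chain and form the sheet-like core of basement membranes. In fat, every adipocyte is wrapped in a basement membrane that holds laminin, type IV collagen and nidogen, and adipocytes grip it through integrins that contain Itgb1. Immune cells carry their own integrins, which they use to leave the blood and to move in tissue. The genes described here are 34 integrin and laminin subunits out of the 22911 genes with a symbol on the array, chosen by name. They comprise 6 integrin subunits that are made mainly by leukocytes (Itgal, Itgam, Itgae, Itga4, Itgb2 and Itgb7), 18 other integrin subunits and 10 laminin chains. Itga4 and Itgb7 are also known outside leukocytes, so the name of the group is a convention.

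Their RNA was measured in brown adipose tissue (BAT) and gonadal white adipose tissue (gWAT) of male C57BL/6NCrSlc mice, with 4 arrays for each tissue and genotype and 16 arrays in all. Adipo-Pgam1 KO mice carried floxed Pgam1 and the Adipoq-Cre transgene, in which the adiponectin promoter drives Cre recombinase in adipocytes. Pgam1 encodes a glycolytic enzyme, and how far it was lost in each cell type of the tissue was not measured on these arrays. The littermate controls, labelled wild-type, carried the same floxed Pgam1 alleles without Cre, so that floxed alleles were common to all groups and the Cre transgene was not. Every mouse was 16 weeks old, except that replicate 4 of the Adipo-Pgam1 KO group was 14 weeks old in both tissues. Since the labels do not say whether the arrays of one group came from separate animals, the p-values measure the spread between these arrays.

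In BAT, the normalized log2 signal of Pgam1 was 7.94 in controls and 6.20 in Adipo-Pgam1 KO mice, a log2 change of -1.74 (limma, adjusted p = 1.11e-05). In gWAT, Pgam1 stood at 5.36 in controls and at 6.31 in the arrays labelled Adipo-Pgam1 KO, a log2 change of 0.95 (limma, adjusted p = 0.014). The targeted gene thus went against the label in gWAT, where all directions below depend on the label being right. The brown adipocyte gene Cidea stood higher in the gWAT arrays with that label, by 3.41 (adjusted p = 0.00122). The defining brown adipocyte genes Ucp1, Cidea and Dio2 were well above background on all BAT arrays. Their summed signal was 2270 to 2400 times the 75th percentile of an array in BAT controls, 841 to 1310 times in BAT of Adipo-Pgam1 KO mice, 4.66 to 9.22 times in gWAT controls and 45.8 to 128 times in the arrays labelled Adipo-Pgam1 KO. In gWAT this sum is mostly Cidea. There Ucp1 was well above background on 0 control arrays and 3 with that label, and Dio2 on 2 and 2. Neither of them was tested between the genotypes in gWAT. The arrays lay on 3 slides, and in each tissue only control replicate 4 shared a slide with the 4 arrays of the other genotype. BAT control replicates 1 to 3 were alone on slide 1. The slide of gWAT control replicate 4 and the gWAT arrays labelled Adipo-Pgam1 KO was scanned on another day than the other slides.

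Each level is a probe's log2 signal relative to the 75th percentile of the array, so that 0 is the brightness of that percentile. A probe has its own brightness, so levels were compared between arrays for one gene and not between genes. The brightest probe stood for each gene, which was tested where at least 1 of the groups compared had that probe well above background on its 4 arrays. All 34 genes were on the array, and 27 of them were well above background on all 16 arrays. Itga2, a collagen receptor subunit, was well above background on no array. Itga2b, the platelet fibrinogen receptor subunit, Itga8, Itgb6 and Itgb8 were above background on only some arrays and could not be tested in any comparison. Lama3, a chain of epithelial laminins, was not well above background on any BAT array. This left 28 genes tested in BAT and 29 in gWAT. A gene is called changed at an adjusted p under 0.05 in limma, with Benjamini-Hochberg adjustment over all genes tested.

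In BAT, Adipo-Pgam1 KO mice had higher levels of 14 of the 28 genes tested and lower levels of 5, and 9 were not called. Of all 14280 genes tested in BAT, 27.5% were called higher and 34% called lower. The median log2 change was 0.38 over the integrins and laminins tested and -0.08 over all genes. Of the 6 leukocyte subunits, 3 rose and 1 fell, with a median of 1.17, and of the 22 other genes tested 11 rose and 4 fell, with a median of 0.38. The count of genes called was 16 of 30 tested without replicate 4 of the Adipo-Pgam1 KO mice, the mouse aged 14 weeks. It was also 16, of 28 tested, without replicate 2 of that group, a mouse aged 16 weeks. Because each sample is a whole tissue, a change in the number of cells of a type and a change in RNA per cell cannot be told apart.

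Itgb2, the beta chain shared by all the classical leukocyte adhesion receptors, rose most in the leukocyte group. Its level in BAT was -2.03, -1.77, -0.93 and -1.85 in controls and 0.84, 1.14, 0.96 and 0.75 in Adipo-Pgam1 KO mice. No control array reached the lowest Adipo-Pgam1 KO array, although control replicate 3 stood above the other controls. The log2 change was 2.57 (SE 0.23, adjusted p = 3.48e-05), or 5.92-fold. In gWAT, the level of Itgb2 was -0.21, -0.34, -0.20 and 0.26 in controls and 0.26, 0.32, 0.87 and 2.59 in the arrays labelled Adipo-Pgam1 KO. The highest control and the lowest array labelled Adipo-Pgam1 KO were nearly level, and replicate 4 of the latter stood far above the rest. The change of 1.14 did not pass the threshold (SE 0.47, adjusted p = 0.126) and was 0.61 without that replicate.

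Itga4 and Itgb7 encode the chains of one receptor, which binds Vcam1, fibronectin and the gut homing ligand Madcam1, and Itga4 also pairs with Itgb1. In BAT controls the level of Itga4 was -2.57, -2.32, -1.93 and -2.31, and in Adipo-Pgam1 KO mice it was 0.20, 0.32, -0.14 and -0.60. That of Itgb7 was -2.17, -2.23, -1.71 and -1.79 in controls and 0.02, 0.49, 0.46 and -0.19 in Adipo-Pgam1 KO mice. For both genes all 4 Adipo-Pgam1 KO arrays lay above all 4 controls, with replicate 4 the lowest of them. The log2 change was 2.23 for Itga4 (SE 0.22, adjusted p = 5.37e-05) and 2.17 for Itgb7 (SE 0.19, adjusted p = 3.46e-05). In gWAT, neither gene passed the threshold. Itga4 stood at -0.61, -1.03, -0.49 and -0.45 in gWAT controls and at -1.25, -0.77, -0.98 and 0.63 in the arrays labelled Adipo-Pgam1 KO. Itgb7 stood at -0.16, -0.49, -0.28 and -0.07 in gWAT controls and at -0.54, -0.54, -0.35 and 0.59 in the arrays labelled Adipo-Pgam1 KO. In the latter group replicate 4 was again apart, above every other gWAT array for both genes.

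The 250 bases before the transcription start of these paired genes, from RefSeq on build GRCm38.p6 and read on the strand of the gene, are shown because the genes moved by nearly the same amount. Itga4 lies on the plus strand, with this window at chr2:79255176-79255425, and Itgb7 on the minus strand, at chr15:102231936-102232185. Capitals mark matches, on either strand, to the Ets or PU.1 core GAGGAA, the Runx core TGTGGT or the GC box GGGCGG:
Itga4: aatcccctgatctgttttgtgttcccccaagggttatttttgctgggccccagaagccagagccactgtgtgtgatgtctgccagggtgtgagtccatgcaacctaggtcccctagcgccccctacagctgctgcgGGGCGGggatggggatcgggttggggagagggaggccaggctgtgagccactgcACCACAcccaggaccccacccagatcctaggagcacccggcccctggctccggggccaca
Itgb7: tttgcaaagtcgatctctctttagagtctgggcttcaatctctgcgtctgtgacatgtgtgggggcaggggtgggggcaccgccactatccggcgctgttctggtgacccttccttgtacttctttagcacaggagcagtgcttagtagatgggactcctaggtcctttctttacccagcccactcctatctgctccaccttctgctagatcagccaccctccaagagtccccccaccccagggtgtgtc
The window of Itga4 held 1 match to the Runx core and 1 to the GC box, and that of Itgb7 held none of the 3 motifs. Windows of the same length held the Ets or PU.1 core in 23.3% of 32851 promoters, the Runx core in 14.0% and the GC box in 32.7%. Among the 25 windows of the 22 integrin and laminin genes that had any, 13 held the Ets or PU.1 core, 2 the Runx core and 9 the GC box. A match to so short a motif is a description of the letters and not a binding site. Lama1 and Itgb2 had no entry.

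Itgal and Itgam are the alpha chains that pair with Itgb2 in LFA-1, the lymphocyte adhesion receptor, and in Mac-1, a receptor of macrophages and neutrophils. In BAT, Itgal stood at -3.21 to -2.10 in controls and at -2.87 to -2.32 in Adipo-Pgam1 KO mice, and the groups overlapped. Its log2 change was 0.17 (SE 0.23, adjusted p = 0.551). That of Itgam was 0.14 (SE 0.10, adjusted p = 0.262) with its brightest probe. The second probe of Itgam, a dimmer one that was well above background in BAT, changed by -1.42 (adjusted p = 0.00014 over all probes tested). The 2 probes of Itgam thus gave different results, and no direction is given for it. In the comparison above, neither alpha chain was called higher with its brightest probe, unlike Itgb2. Under spike-in scaling both were called higher, Itgal by 0.67 (adjusted p = 0.0373) and Itgam by 0.64 (adjusted p = 0.00143). Quantile normalization also called Itgam higher (0.32, adjusted p = 0.0153), and the mean of all probes called it lower (-0.64, adjusted p = 0.00299). With the slide as a block, the difference of Itgal was -0.45.

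Itgae pairs with Itgb7 in the receptor for E-cadherin that marks lymphocytes and dendritic cells resident in epithelia. Its level in BAT was -0.04, -0.23, 0.10 and -0.55 in controls and -1.62, -1.41, -1.08 and -0.90 in Adipo-Pgam1 KO mice. All 4 Adipo-Pgam1 KO arrays lay below all 4 controls, opposite in direction to Itgb7. Itgae fell by 1.07 on the log2 scale (SE 0.195, adjusted p = 0.0014). With the slide as a block, which leaves control replicate 4 as the sole control on the slide of the Adipo-Pgam1 KO arrays, the change was -0.70 and did not pass the threshold (adjusted p = 0.0687). In gWAT, Itgae stood at -1.95, -2.30, -1.84 and -1.97 in controls and at -2.17, -2.43, -2.24 and -2.67 in the arrays labelled Adipo-Pgam1 KO. These levels lay below every BAT array, and the difference between the genotypes in gWAT did not pass the threshold (log2 change -0.37, adjusted p = 0.138).

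**Figure D1:**
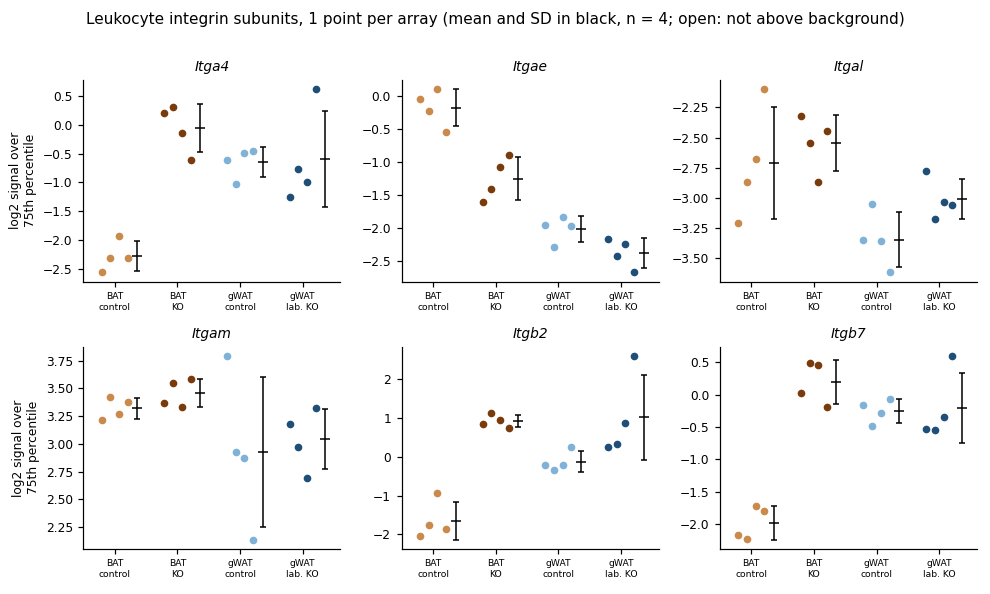
Level of the 6 leukocyte integrin subunits on each array (vertical axis: log2 of the signal over the array's 75th percentile, with its own scale per gene), in BAT and gWAT of controls and of arrays labelled Adipo-Pgam1 KO. Black bars give the mean and SD of 4 arrays. In BAT the Adipo-Pgam1 KO points for Itga4, Itgb2 and Itgb7 sit above all control points, and those for Itgae sit below.

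Averaged over the 6 leukocyte subunits, the level was -1.13 to -0.65 in BAT controls and 0.03 to 0.26 in BAT of Adipo-Pgam1 KO mice. Of these subunits only Itgb2, Itga4 and Itgb7 were called higher in BAT, and Itgae was called lower. The average over 21 other integrins and laminins that were above background on all arrays was 0.77 to 1.15 and 1.21 to 1.43. The leukocyte average less that of the others was -2.28 to -1.64 in controls and -1.35 to -1.02 in Adipo-Pgam1 KO mice, so that the ranges did not overlap. In gWAT, it was -2.43 to -2.16 in controls and -2.24 to -1.79 in the arrays labelled Adipo-Pgam1 KO, and replicate 4 of the latter was the highest. The size of these averages depends on the brightness of the probes, and only their shift between groups has a meaning. No test was made of them.

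General leukocyte and macrophage genes were higher in BAT beside Itgb2, Itga4 and Itgb7, the leukocyte subunits that were called higher there. Of the pan-leukocyte markers Ptprc, Laptm5 and Coro1a, 3 of 3 rose, and their summed signal, relative to the 75th percentile, was 2.61 to 4.31 in controls and 14.8 to 20.9 in Adipo-Pgam1 KO mice. All 6 macrophage markers rose, with sums of 18.9 to 29.3 and 79.9 to 125. Of the 4 T cell genes tested 2 rose, Cd3d by 1.35 (adjusted p = 0.0139) and Cd3g (adjusted p = 0.0104). The fitted change of Cd3g, 1.78, is no measured fold, since 1 of 4 control arrays was well above background. Cd3e and Cd4 differed by -0.01 and -0.38 and were not called, and Cd8a was not well above background on any array of the BAT controls. The sum of the T cell markers was 3.40 to 5.87 in controls and 3.28 to 4.57 in Adipo-Pgam1 KO mice, and these ranges overlapped. This sum is mostly the brighter probes of Cd4 and Cd3e and says little about the others. Of the 4 neutrophil markers tested, Mpo rose by 0.71 (adjusted p = 0.0108) and Csf3r fell by 0.57 (adjusted p = 0.00102), while S100a8 and S100a9 differed by 1.15 and 0.75 and were not called. Their sum, 115 to 145 in controls and 86.7 to 94.3 in Adipo-Pgam1 KO mice, is mostly the bright probe of Csf3r and says little about the other 3. Of the adipocyte markers, 4 of 4 fell, and their sum was 1160 to 1370 in controls and 248 to 353 in Adipo-Pgam1 KO mice. Of 4 Schwann cell markers 1 rose, and 0 of 4 epididymal markers could be tested in either tissue. The part of these shifts in the integrin results was not tested.

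**Figure D2:**
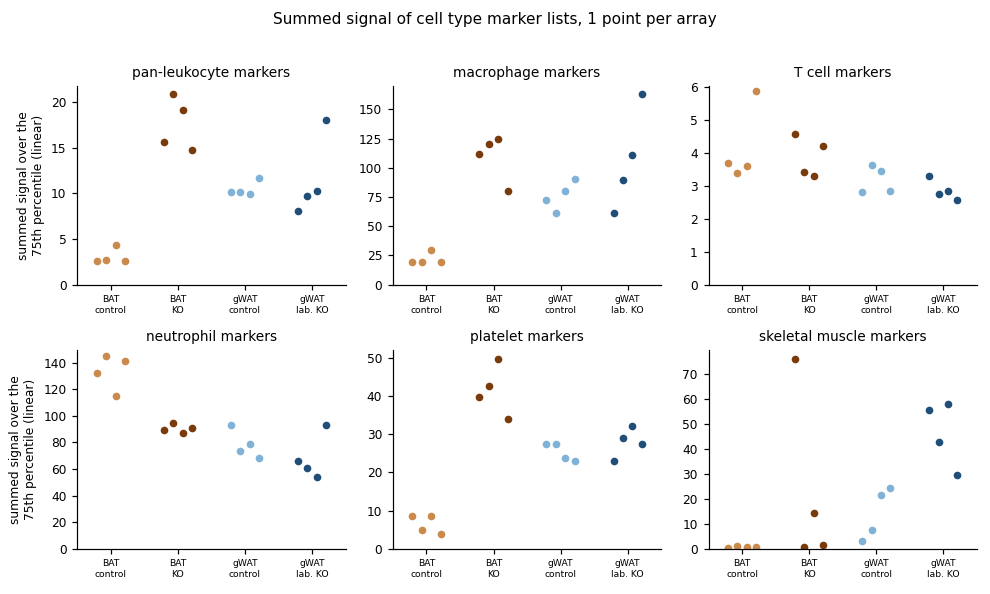
Summed signal of 6 cell type marker lists on each array, relative to the array's 75th percentile on a linear axis that starts at 0, by tissue and genotype. Pan-leukocyte and macrophage sums of BAT Adipo-Pgam1 KO arrays lie above those of BAT controls, and replicate 4 of the gWAT arrays labelled Adipo-Pgam1 KO has the highest gWAT sum in both lists.

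The receptors for fibronectin and other ligands with an RGD motif include the alpha chains Itga5, Itgav and Itga8 and the beta chains Itgb3, Itgb5, Itgb6 and Itgb8. Itga5, the alpha chain of the classical fibronectin receptor, stood at -2.17, -2.23, -3.32 and -3.76 in BAT controls and at -0.61, -1.41, -2.25 and -0.02 in Adipo-Pgam1 KO mice. The groups overlapped, since Adipo-Pgam1 KO replicate 3 lay level with the upper controls. Its log2 change was 1.80 (SE 0.53, adjusted p = 0.0163), and after normexp background correction it was 0.88 and did not pass the threshold (adjusted p = 0.0575). Itgb3, which pairs with Itgav and on platelets with Itga2b, stood at -1.45, -1.44, -2.56 and -3.06 in controls and at -0.35, -0.87, -1.23 and 0.65 in Adipo-Pgam1 KO mice. Here the groups did not overlap, and replicate 4 of the Adipo-Pgam1 KO mice was the highest. The log2 change of Itgb3 was 1.68 (SE 0.49, adjusted p = 0.0155). Itgb5, which pairs with Itgav in a vitronectin receptor, rose by 0.96 (SE 0.10, adjusted p = 7.68e-05), with each Adipo-Pgam1 KO array above each control. Itgav itself differed by 0.26 and narrowly missed the threshold (adjusted p = 0.0501), although its groups did not overlap. Some alternatives called Itgav higher, among them the deposited table (0.255, adjusted p = 0.0495), the methods' t-test (0.255, adjusted p = 0.0282) and quantile normalization (0.345, adjusted p = 0.0168).

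Among platelet markers in BAT, Pf4 rose by 2.80 (adjusted p = 4.68e-05), and it makes up nearly all of the summed platelet signal, which was 3.91 to 8.71 in controls and 34 to 49.8 in Adipo-Pgam1 KO mice. Ppbp, the other one tested, differed by 1.57 and was not called (adjusted p = 0.077). Of the 4 control arrays and the 4 Adipo-Pgam1 KO arrays, 2 and 1 had Gp9 well above background, 1 and 0 had Gp1bb, and 1 and 3 had Itga2b. The part of platelets in the level of Itgb3 was not tested.

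Laminin is bound by Itga3, Itga6 and Itga7 in pairs with Itgb1, and by Itga6 with Itgb4 in hemidesmosomes. Itgb1, the beta chain that most alpha chains share, stood at 4.61, 4.55, 4.62 and 4.53 in BAT controls and at 5.06, 4.85, 4.81 and 4.90 in Adipo-Pgam1 KO mice. All Adipo-Pgam1 KO arrays lay above the controls, by a small amount. Its log2 change was 0.33 (SE 0.09, adjusted p = 0.0125), or 1.25-fold, and with the slide as a block it was 0.38 and did not pass the threshold (adjusted p = 0.0619). The second probe of Itgb1 gave 0.51 (adjusted p = 0.00761). Itga6 and Itga7 rose by 0.82 (SE 0.26, adjusted p = 0.0223) and by 0.53 (SE 0.20, adjusted p = 0.047). Itgb4 differed by -0.01 (SE 0.18, adjusted p = 0.972).

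The calls for Itga6 and Itga7 depended on which arrays were in the fit. Itga6 was not called without control replicate 3 or without Adipo-Pgam1 KO replicate 1 or 4 (log2 change 0.72 to 0.76, adjusted p 0.0555 to 0.0618). Itga7 was called without control replicate 1 or Adipo-Pgam1 KO replicate 4 and in none of the other 6 cases (0.42 to 0.57, adjusted p 0.0671 to 0.117). Itga7 is known as the laminin receptor of skeletal muscle, and muscle markers varied among the BAT arrays. Their sum was 0.389 to 1.07 in controls and 76.0, 0.846, 14.2 and 1.39 in Adipo-Pgam1 KO replicates 1 to 4. Without replicate 1, which had the most muscle signal, the log2 change of Itga7 was 0.42 (adjusted p = 0.117), and without replicate 2, which had the least of the 4, it was 0.55 (adjusted p = 0.0828). The part of muscle in the level of Itga7 was not tested. For Itga3 the direction depended on the probe, since the brighter probe rose by 0.49 (adjusted p = 0.0171), the dimmer one changed by -0.80 (adjusted p = 0.0191 over all probes tested), and their mean by -0.16 (adjusted p = 0.417).

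Collagen is bound by Itga1, Itga2, Itga10 and Itga11. Itga1, found on smooth muscle, pericytes and small vessels, fell by 0.81 (SE 0.14, adjusted p = 9.65e-04), and its second probe changed by -0.50 (adjusted p = 0.013 over all probes tested). Under spike-in scaling the difference of Itga1 was -0.31 and did not pass the threshold (adjusted p = 0.0547). Of 5 mural cell markers tested in BAT 1 fell, and their sum was 23.2 to 35.1 in controls and 21.1 to 26.4 in Adipo-Pgam1 KO mice. The part of mural cells was not tested. Itga10 and Itga11 were not called, with log2 changes of -0.18 and 0.43. Some alternatives called Itga11 higher, among them spike-in scaling (0.93, adjusted p = 0.00545) and the replicate block (0.43, adjusted p = 0.0407). Itga9, whose receptor binds tenascin and osteopontin, rose by 0.85 (SE 0.15, adjusted p = 0.00128), with no overlap between the groups, and its second probe gave 1.44 (adjusted p = 0.0143).

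**Figure D3:**
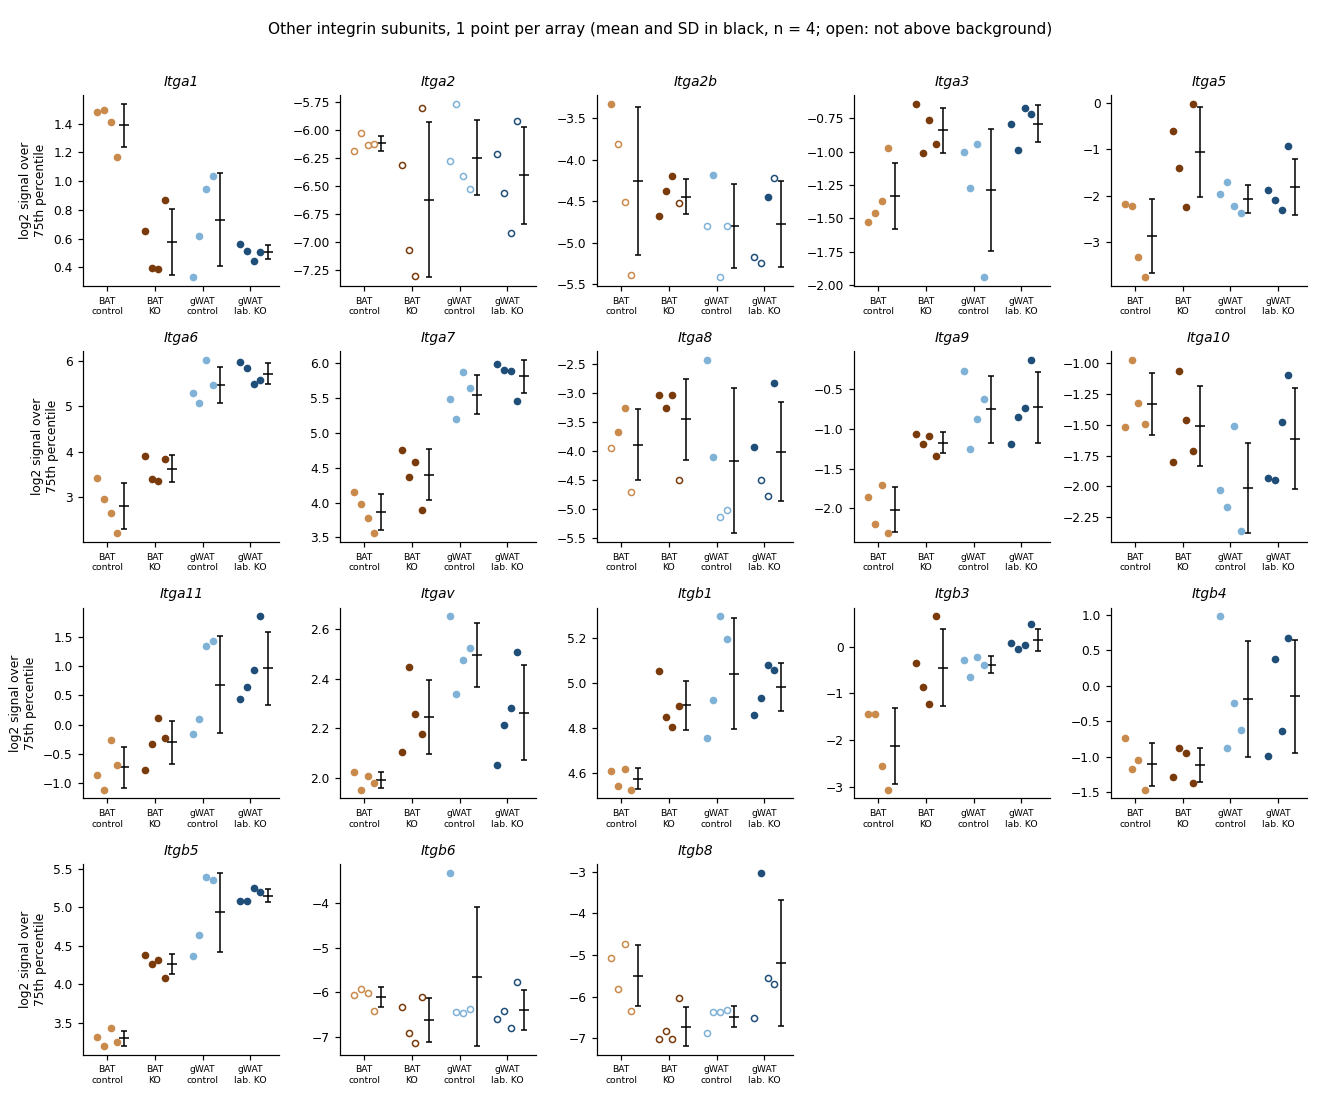
Level of the 18 other integrin subunits on each array (vertical axis: log2 of the signal over the array's 75th percentile, with its own scale per gene), by tissue and genotype. Black bars give the mean and SD of 4 arrays, and open points were not well above background. Itgb5 and Itga9 of BAT lie higher in all Adipo-Pgam1 KO arrays than in controls, Itga1 lies lower, and Itga2 has open points throughout.

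Among laminins, Lama1 had the largest change of the 28 genes tested in BAT. Lama1 is the alpha chain of the laminin of early embryos, which adult tissues make in few places. In BAT controls its level was -5.86, -5.71, -5.81 and -6.19, not well above background on any array, and in Adipo-Pgam1 KO mice it was 1.86, 1.49, 2.10 and -0.01, well above background on all 4. Replicate 4, the mouse aged 14 weeks, was the lowest of these, but far above every control. The adjusted p of 7.02e-06 in limma is that of the fitted difference and not of a bound. As a bound, Lama1 was at least 40.1-fold higher in Adipo-Pgam1 KO mice. This bound sets the Adipo-Pgam1 KO mean against the dimmest signal that was well above background on each control array. In gWAT, Lama1 was well above background on all 8 arrays, at 0.47, 0.19, -0.72 and 0.26 in controls and at 0.19, -1.17, -0.62 and -0.89 in the arrays labelled Adipo-Pgam1 KO. The log2 change there was -0.67 and did not pass the threshold (SE 0.34, adjusted p = 0.195). Lama1 had 1 probe on the array, so that no second probe bears on it.

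The other alpha chains were not called in BAT. Lama2, the alpha chain of muscle and nerve laminin, differed by 0.32 (SE 0.13, adjusted p = 0.0586), and its groups did not overlap. Lama2 was called higher with quantile normalization (0.40, adjusted p = 0.0217), normexp background correction (0.38, adjusted p = 0.0202) and spike-in scaling (0.82, adjusted p = 0.00252). With the slide as a block its change was 0.57. Lama4, the alpha chain known from adipocyte and vessel basement membranes, and Lama5, its vascular and epithelial relative, differed by 0.07 and 0.03. Under spike-in scaling Lama4 was called higher (0.57, adjusted p = 0.0316). The BAT endothelial markers, of which 0 of 5 were called, had sums of 16.5 to 23.3 in controls and 14.3 to 19.8 in Adipo-Pgam1 KO mice.

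The beta chains moved in opposite directions. Lamb2, the later-formed beta chain of muscle, kidney and vessels, rose by 0.71 (SE 0.13, adjusted p = 0.00179), from 1.43 to 1.79 in controls to 2.16 to 2.64 in Adipo-Pgam1 KO mice. Lamb1, the widespread beta chain, stood at 5.15, 5.51, 5.31 and 5.38 in controls and at 4.49, 4.51, 4.32 and 4.49 in Adipo-Pgam1 KO mice. Both groups were narrow and lay far apart. Lamb1 fell by 0.885 (SE 0.105, adjusted p = 1.36e-04), and its values are given in full because it was the single gene of the 34 called in gWAT, a choice made after its values were seen. All 3 probes of Lamb1 were lower in BAT, with log2 changes of -0.885, -0.89 and -1.55.

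The 250 bases before the transcription start of Lamb1, from RefSeq on build GRCm38.p6, are shown because Lamb1 was lower in both tissues while Lamb2 was not. The window lies on the plus strand at chr12:31265043-31265292, and capitals mark the same 3 motifs on either strand:
Lamb1: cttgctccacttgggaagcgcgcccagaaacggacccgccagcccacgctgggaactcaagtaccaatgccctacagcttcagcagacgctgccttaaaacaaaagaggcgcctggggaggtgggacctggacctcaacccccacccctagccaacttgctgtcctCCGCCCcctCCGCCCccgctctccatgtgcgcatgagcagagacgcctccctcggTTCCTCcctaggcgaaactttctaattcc
It held 1 match to the Ets or PU.1 core and 2 to the GC box.

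Lamc1, the gamma chain of nearly all basement membrane laminins, rose by 0.48 (SE 0.13, adjusted p = 0.0122), and its second probe by 0.70 (adjusted p = 0.0027 over all probes tested). Lamb3, of epithelial laminin, and Lamc3, of laminins in brain, retina and vessel walls, were called lower in the log2 comparison, by -0.47 (SE 0.16, adjusted p = 0.0303) and -0.39 (SE 0.12, adjusted p = 0.0227), but under spike-in scaling they differed by 0.03 and 0.115 and were not called. The call for Lamb3 was lost without control replicate 2 or 4 or without Adipo-Pgam1 KO replicate 1, 2 or 4 (-0.49 to -0.36, adjusted p 0.0557 to 0.0781). The second probe of Lamb3 was lower by -0.83 (adjusted p = 0.00333 over all probes tested). The call for Lamc3 was lost without control replicate 1 or 3 or without Adipo-Pgam1 KO replicate 2 or 4 (-0.38 to -0.29, adjusted p 0.0505 to 0.0583). Of 4 fibroblast markers, 3 rose in BAT, with sums of 93.7 to 102 in controls and 114 to 146 in Adipo-Pgam1 KO mice, and their part in the laminin results was not tested.

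**Figure D4:**
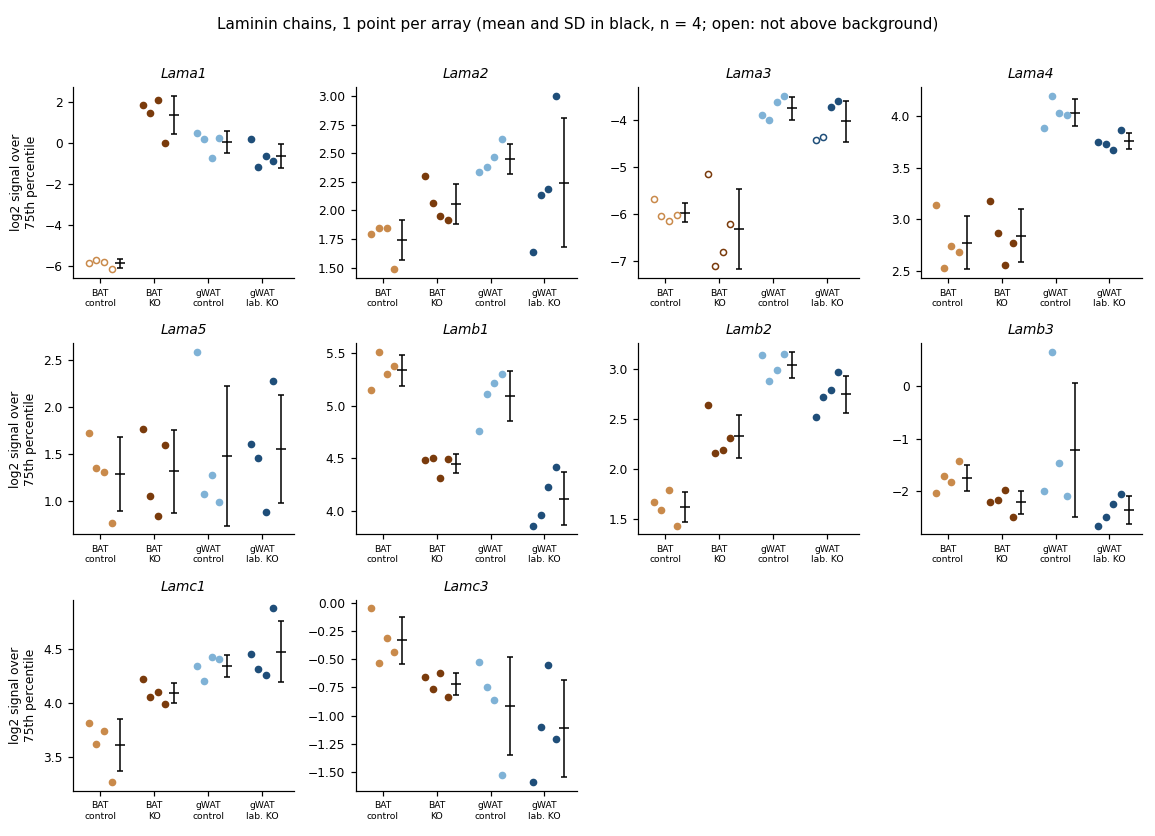
Level of the 10 laminin chains on each array (vertical axis: log2 of the signal over the array's 75th percentile, with its own scale per gene), by tissue and genotype. Black bars give the mean and SD of 4 arrays, and open points were not well above background. Lama1 is at background in the BAT controls alone, and Lamb1 has its lowest points with Adipo-Pgam1 KO in both tissues.

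In gWAT, the arrays labelled Adipo-Pgam1 KO had 0 of the 29 integrin and laminin genes tested called higher and 1 called lower. At an unadjusted p under 0.05 in limma, 2 were higher (Itgb2 and Itgb3) and 3 lower (Lamb1, Lama4 and Itgae). The methods' t-test after Benjamini-Hochberg adjustment called 1. Of all 14149 genes tested in gWAT, 9.95% were called higher and 7.87% lower, and the median log2 change was 0.04 over the 29 genes and 0.05 over all. The gene called was Lamb1, which stood at 4.76, 5.12, 5.21 and 5.30 in controls and at 3.86, 3.96, 4.23 and 4.42 in the arrays labelled Adipo-Pgam1 KO. The groups did not overlap. The log2 change of Lamb1 was -0.98 (SE 0.17, adjusted p = 0.00996), close to the -0.885 of BAT, and its other probes changed by -1.07 (adjusted p = 0.00399) and -1.40 (adjusted p = 0.00299), both adjusted over all probes tested. The difference of Lamb1 was not called with the slide as a block (-1.18, adjusted p = 0.0924) or under spike-in scaling (-0.49, adjusted p = 0.145).

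Several genes were close to the threshold in gWAT. Itgb3 was 0.53 higher (SE 0.16, adjusted p = 0.0523), with no overlap between its groups, which stood at -0.65 to -0.23 and at -0.04 to 0.49. It was called with quantile normalization (0.535, adjusted p = 0.0399) and spike-in scaling (1.02, adjusted p = 0.0192). With the mean of its probes it was 0.27 and not called (adjusted p = 0.301). Lama4 differed by -0.27 (SE 0.12, adjusted p = 0.134), also without overlap. Itga1 differed by -0.23 with its brightest probe (adjusted p = 0.371) and by -1.06 with its dimmer one (adjusted p = 0.00325 over all probes tested), so that its 2 probes disagreed. Lamb3 had the largest difference, -1.15, but control replicate 2 stood at 0.66 and the other controls at -2.09 to -1.47, and it was not called (adjusted p = 0.176). The median log2 change was 0.08 over the 6 leukocyte subunits and -0.27 over the 10 laminins. Of the macrophage markers 1 of 6 rose in gWAT, with sums of 61.5 to 90.6 in controls and 61.3 to 163 in the arrays labelled Adipo-Pgam1 KO, and 0 of 3 pan-leukocyte markers did. The highest of these sums belonged to replicate 4, which also had the highest levels of Itgb2, Itga4 and Itgb7. The summed muscle markers were 3.28 to 24.3 in controls and 29.7 to 58.1 with the Adipo-Pgam1 KO label, but 0 of 4 were called and the sum is mostly Acta1 (log2 change 2.20, adjusted p = 0.0504). Tnnt3, Actn3 and Mylpf differed by -0.63, -0.345 and -0.09, and Ckm was not well above background in either group. The mural sum was 26.8 to 44.4 in controls and 55.2 to 88.1 with that label, and of its 5 markers only Acta2 was called (1.33, adjusted p = 0.0144). The summed epididymal markers were 1.61 in control replicate 1 and 1.48 in replicate 3 with that label. On the other gWAT arrays this sum was 0.0434 to 0.332. The part of these marker differences was not tested.

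**Figure D5:**
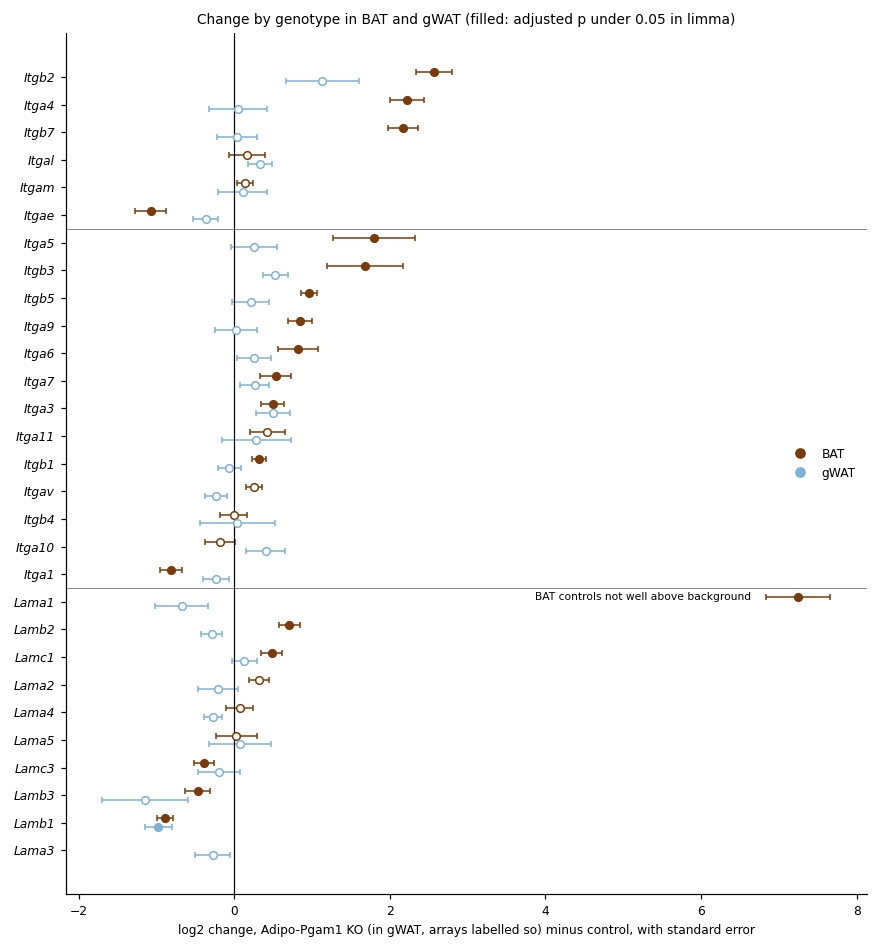
Log2 change and its standard error for each tested gene (horizontal axis), in BAT and in gWAT, with leukocyte integrins, other integrins and laminins separated by lines. Filled points passed an adjusted p of 0.05 in limma. Filled points are frequent in BAT, and Lamb1 alone is filled in gWAT. For Lama1 the fitted BAT value rests on controls at background and is not a measured fold.

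The genotype change differed between the tissues for 9 of the 29 genes tested in the interaction over all 16 arrays. Of these, 7 changed less, or in the opposite direction, in gWAT than in BAT, against 21% of all 14820 genes tested whose change was lower in gWAT. The other 2, Itgae and, with its brightest probe, Itga1, had a more negative change in BAT, against 27.4% of all genes. Itga4 and Itgb7 stood out among them, with differences of -2.18 (SE 0.47, adjusted p = 0.00165) and -2.13 (SE 0.34, adjusted p = 1.92e-04). Lamb2 rose in BAT and was -0.29 in gWAT, a difference of -0.997 (SE 0.185, adjusted p = 6.06e-04). Itgav was 0.26 in BAT and -0.23 in gWAT, and the difference of -0.49 was called (adjusted p = 0.0198) although neither tissue was called alone. The difference of Itgav was not called with median centring (-0.39, adjusted p = 0.0786), spike-in scaling (-0.50, adjusted p = 0.208) or the slide as a block (-0.525, adjusted p = 0.168). The difference of Lama1 was also called (adjusted p = 1.47e-06), and its size is not given here as a fold because the BAT controls were at background. For Itgb2 the difference of -1.43 narrowly missed the threshold (SE 0.57, adjusted p = 0.0503), and without replicate 4 of the gWAT arrays labelled Adipo-Pgam1 KO it was -1.96 (adjusted p = 3.10e-04). For Lamb1 the difference between the tissues was within its error, at -0.09 (SE 0.20, adjusted p = 0.731), but with quantile normalization it was called (-0.58, adjusted p = 0.0327).

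The calls of the remaining genes in the interaction depended on which arrays were in the fit. For Itga9 (-0.83, adjusted p = 0.0496), the call was kept without control replicate 3 in BAT, control replicate 2 in gWAT or replicate 4 of the gWAT arrays labelled Adipo-Pgam1 KO, and lost in the 13 other cases (adjusted p 0.0529 to 0.103). For Itgb5 (-0.75, adjusted p = 0.0313) it was lost in 7 of 16, namely without BAT control replicate 2, BAT Adipo-Pgam1 KO replicate 1 or 3, gWAT control replicate 3 or 4, or replicate 1 or 2 of the gWAT arrays labelled Adipo-Pgam1 KO (adjusted p 0.0526 to 0.0619). Itgae (0.71, adjusted p = 0.0332) lost it in 7 of 16, without BAT control replicate 1 or 3, BAT Adipo-Pgam1 KO replicate 1 or 2, gWAT control replicate 2, or replicate 1 or 3 of the gWAT arrays labelled Adipo-Pgam1 KO (adjusted p 0.0617 to 0.0711). Itga1 (0.59, adjusted p = 0.0369) kept it in 7 of 16, without BAT control replicate 4, BAT Adipo-Pgam1 KO replicate 1 or 4, gWAT control replicate 3 or 4, or replicate 3 or 4 of the gWAT arrays labelled Adipo-Pgam1 KO, and lost it otherwise (adjusted p 0.0581 to 0.0767). With its dimmer probe the difference of Itga1 was called in the opposite direction (-0.56, adjusted p = 0.0296 over all probes tested in limma). With the mean of all probes it was 0.01 and not called (adjusted p = 0.962), so no direction is given for Itga1.

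In controls, the integrin and laminin genes were mostly higher in gWAT than in BAT. Of the 29 tested, 17 were called higher and 5 lower in gWAT, while of all 14304 genes tested 29.2% were higher and 35.5% lower. BAT control replicate 4 was the only BAT control on a slide with gWAT controls, so tissue and slide cannot be fully told apart. The median log2 difference was 0.80 over the integrins and laminins, or 0.73 with genes at background held at their bound, and -0.10 over all genes. Lama1 was at least 16.2-fold higher in gWAT (adjusted p = 8.12e-07), and Lama3 at least 1.15-fold (adjusted p = 7.28e-06). Both p-values are those of the fitted differences and not of the bounds, and after normexp background correction Lama3 differed by 0.07 and was not called (adjusted p = 0.65). Itga6 was higher by 2.65 (SE 0.29, adjusted p = 6.92e-05) and Itga7 by 1.68 (SE 0.18, adjusted p = 7.17e-05), both of them laminin-binding chains. Lama4 and Lamb2 were higher by 1.26 (adjusted p = 1.19e-04) and 1.42 (adjusted p = 1.82e-05). Among the leukocyte subunits, Itgb7, Itga4 and Itgb2 were higher by 1.73, 1.64 and 1.52, and Itgae was lower by -1.84 (SE 0.17, adjusted p = 2.77e-05). These differences have the same controls in common with the genotype comparisons, which are given here only side by side. The mean level of Itga4 was -2.28 ± 0.26 (SD, n = 4) in BAT controls, -0.05 ± 0.41 (SD, n = 4) with Adipo-Pgam1 KO and -0.645 ± 0.26 (SD, n = 4) for gWAT of controls. Lamb1 did not differ between the tissues in controls beyond its spread (-0.24, SE 0.15, adjusted p = 0.178) with its brightest probe, whereas the dimmest of its 3 probes gave -1.08 (adjusted p = 0.00142 over all probes tested).

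The other genes called lower in gWAT controls were Itga10, Itga1, Itgal and Lamc3. Itga10 (-0.69) was not called with spike-in scaling (-0.53), the mean of all probes (-0.28) or the slide as a block (-0.405). Itga1 (-0.66) was not called with the slide as a block (-0.54, adjusted p = 0.118) or with its second probe (-0.20, adjusted p = 0.241). The call for Itgal (-0.64, adjusted p = 0.04) was kept without BAT control replicate 1 or gWAT control replicate 2 and lost in the 6 other cases (adjusted p 0.0563 to 0.0979). That for Lamc3 (-0.58, adjusted p = 0.0435) was kept without gWAT control replicate 1 and lost in the 7 other cases (adjusted p 0.0521 to 0.108). Of the macrophage markers 6 of 6, and of the fibroblast markers 4 of 4, were higher in gWAT than in BAT of controls. The mesothelial markers Msln, Upk3b, Krt19 and Wt1 were not well above background in BAT controls, and all 5 mesothelial markers were above background on every array of the gWAT controls. The part of these cells in the depot differences was not tested.

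Proteins on the inner side of integrins link them to actin. Of 26 integrin adaptor genes tested in BAT, Adipo-Pgam1 KO mice had 11 called higher and 9 called lower, and the median log2 change was 0.28. Over all genes tested in BAT, 27.5% were called higher and 34% lower, and the median was -0.08. Fermt3, the kindlin of blood cells, rose in BAT (adjusted p = 9.51e-05), and its fitted change of 2.75 (SE 0.30) rests in part on 2 of 4 control arrays that were not well above background. Apbb1ip, which activates integrins through Rap1 in leukocytes, rose by 2.69 (SE 0.25, adjusted p = 4.41e-05). Parvg, the parvin of blood cells, was not well above background on any control array and was at least 2.30-fold higher. Its adjusted p of 0.00107 in limma is that of the fitted difference and not of the bound. Tns3, a tensin, rose by 1.78 (SE 0.16, adjusted p = 3.81e-05). In gWAT, 2 of 25 adaptors were called higher and 2 lower, with a median of 0.26. Over all genes tested in gWAT, 9.95% were called higher and 7.87% lower, with a median of 0.05. Tln2, a talin, fell by 1.20 (SE 0.25, adjusted p = 0.0161), and Tns2 differed by -0.61 (adjusted p = 0.0256). Ilk, the integrin-linked kinase homologue, rose by 0.64 (SE 0.14, adjusted p = 0.0191), and Sharpin, an integrin inhibitor, by 0.60 (SE 0.14, adjusted p = 0.0235). In BAT, Ilk changed in the other direction, by -0.32 (adjusted p = 0.0394), and the difference between the tissues was called (0.96, adjusted p = 5.25e-04).

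The partners of laminin in the basement membrane and its receptors outside the integrins were described in the same way. In the interaction, 6 of 19 had a lower change in gWAT, 2 a higher one and 11 were not called. Over all genes tested, 21% had a lower change in gWAT and 27.4% a higher one. Of 17 tested in BAT, 7 were called higher and 3 called lower, at a median of 0.26, beside 27.5%, 34% and -0.08 over all genes. Col18a1, the source of endostatin, rose by 2.07 (SE 0.21, adjusted p = 6.57e-05), Col4a5, a type IV collagen chain, by 1.98 (SE 0.23, adjusted p = 1.23e-04) and Col15a1 by 1.84 (SE 0.34, adjusted p = 0.00151). Dmd, which encodes dystrophin, rose by 1.73 (SE 0.18, adjusted p = 6.33e-05). In gWAT, 1 of 19 was called higher and 3 lower, with a median of -0.21, beside 9.95%, 7.87% and 0.05 over all genes. Nid1 and Nid2, the nidogens that tie laminin to type IV collagen, fell by 0.84 (SE 0.245, adjusted p = 0.047) and by 1.03 (SE 0.22, adjusted p = 0.0176). In BAT the same nidogens rose, by 1.06 (adjusted p = 6.15e-05) and 1.36 (adjusted p = 1.21e-04), and the difference between the tissues was -1.89 for Nid1 (SE 0.28, adjusted p = 1.05e-04) and -2.39 for Nid2 (SE 0.28, adjusted p = 2.61e-05). Sgcb, a sarcoglycan, rose by 0.89 in gWAT (adjusted p = 0.0173), and Utrn, which encodes utrophin, differed by -0.68 (adjusted p = 0.0361).

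Ligands of integrins had a median log2 change in BAT of 1.16 over 13 genes tested, or 0.97 with genes at background held at their bound. Of them 9 were called higher and 2 lower. Over all genes tested in BAT, 27.5% were called higher and 34% lower, at a median of -0.08. Spp1, which encodes osteopontin, a ligand of Itgav, Itga4 and Itga9 receptors, rose in BAT (adjusted p = 2.67e-04). Its fitted change of 6.13 (SE 0.82) is no measured fold, since only 1 of 4 control arrays was well above background. Tnc, which encodes tenascin-C, was at background in controls and at least 2.12-fold higher. Its adjusted p of 7.79e-05 in limma is that of the fitted difference and not of the bound. Thbs1, or thrombospondin, rose by 3.21 with a wide error (SE 1.24, adjusted p = 0.0499). Vcam1, the endothelial and macrophage ligand of Itga4 receptors, rose by 2.36 (SE 0.36, adjusted p = 5.62e-04). In gWAT, 0 of 14 ligands were called in limma, at a median of 0.19, and 0 had an unadjusted p under 0.05. Over all genes tested in gWAT, 9.95% were called higher and 7.87% lower, at a median of 0.05. Spp1 differed by 2.15 with an SE of 1.06 (adjusted p = 0.185).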

How the data were processed

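RNA of 4 BAT and 4 gWAT samples of each genotype was labelled with Cy3 and hybridized to 1-colour Agilent SurePrint G3 mouse arrays, 16 in all. The labels and the methods give different amounts of input RNA. Per the file headers, Agilent Feature Extraction 10.7.1.1 produced the deposited signals, which are background-subtracted and detrended fluorescence intensity per probe. The authors normalized in GeneSpring, and their deposited table holds, on a linear scale, the ratio of each signal to the 75th percentile of its array. Set against the scanner signals, its columns were offset by at most 0.00646 on the log2 scale, and their medians were 0.083 to 0.109. It served as an alternative.

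Here, the log2 of the processed signal minus the 75th percentile of the non-control probes of each array was fitted in limma 3.58.1 (R 4.3.3) with group means and no covariates, with Benjamini-Hochberg adjustment. No pseudocount was used. Python 3.11.15, pandas 2.3.3, numpy 2.4.6 and matplotlib 3.10.9 served for the other steps. Probes were named through their RefSeq accession in the RefSeq annotation GRCm38.p6, which matched 91.9% of 35886 such probes. The brightest probe over all arrays stood for a gene. Where no array of a group was well above background, a bound was computed from the dimmest signal above background. The 75th percentile was 401 to 451 intensity units in BAT controls and 570 to 917 elsewhere, 50.0% to 62.2% of probes were well above background, and precision is limited by there being 4 arrays per group.

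The genes and lists were chosen with earlier results of these data known. Values on every array are given for genes called with a log2 change of at least 1 in either tissue or in the interaction, and for Itgb1. Of each companion list, up to 4 called genes per tissue with the largest change are named. Alternatives were quantile normalization, median centring, 8 spike-in probes for scaling, normexp background correction (offset 50, on median spot and background signals in place of the planned mean signals), the deposited table, the mean of all probes, no filter or a strict filter, the slide or the replicate number as a block, the methods' t-test, all arrays in one fit and leaving out each array. Testing each further probe of a gene was added after seeing the data. The fit was tested on simulated data. One marker result is not reported here.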

Additional observations from a re-analysis of the deposited data

Results flagged for a closer look

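On 5 occasions 1 array lay far from the other 3 of its group, by Dixon's criterion at the 95% level over 123 groups examined, of which chance flags about 1 in 20. Itga8 stood at -4.50 in BAT of Adipo-Pgam1 KO replicate 4 and at -3.25 to -3.03 in the others. Itgb6 stood at -3.32 in gWAT control replicate 1, the single array on which it was well above background, and at -6.47 to -6.37 in the others. Itgb7 stood at 0.59 in replicate 4 of the gWAT arrays labelled Adipo-Pgam1 KO and at -0.54 to -0.35 in the others. Lama2 stood at 1.48 in BAT control replicate 4, the control on the slide of the Adipo-Pgam1 KO arrays, and at 1.79 to 1.85 in the others. Lamb1 stood at 4.32 in BAT of Adipo-Pgam1 KO replicate 3 and at 4.49 to 4.51 in the others.

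The genotype change differed between the tissues, by the interaction in limma, for 9 genes. For Lama1 the fitted value of -7.92 is no measured size, because the BAT controls were at background. The change in gWAT minus that in BAT was -2.18 for Itga4, -2.13 for Itgb7, -0.997 for Lamb2, -0.83 for Itga9, -0.75 for Itgb5 and -0.49 for Itgav. It was 0.71 for Itgae. For Itga1 it was 0.59 with its brightest probe and -0.56 with its dimmer one. The cause of these differences was not tested.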

How the results depend on the processing

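Of the genes called, 10 of 19 in BAT, 0 of 1 in gWAT, 4 of 9 in the interaction (Itga4, Itgb7, Lama1 and Lamb2) and 14 of 22 between the tissues in controls kept their call under every alternative in which they were tested, further probes of a gene aside. Lama1, counted among them, could not be tested with the strict filter. The number called in BAT was 15 to 22 over the alternatives and 16 to 18 on leaving out 1 array. In gWAT it was 3 with quantile normalization, 6 with spike-in scaling, 2 with the mean of all probes, 2 with the strict filter, 2 with all arrays in one fit and 0 with the slide as a block, and 1 whichever array was left out. In the interaction it was 5 with median centring, 13 with quantile normalization, 11 with the mean of all probes, and 5 to 13 on leaving out 1 array, with 5 without replicate 1 and 13 without replicate 4 in the Adipo-Pgam1 KO group of gWAT. Between the tissues in controls it was 17 to 24, and 20 to 22 on leaving out 1 array. The cause of these shifts was not tested. In BAT, Itga3 was -0.16 with the mean of all probes and -0.80 with its dimmer probe, and under spike-in scaling Lamb3 was 0.034 and Lamc3 0.115. The interaction of Itga1 was -0.56 with its dimmer probe.

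Spike-in scaling moved the median of all genes from -0.08 to 0.42 in BAT and from 0.05 to 0.54 in gWAT. With it, 77.7% of all calls in BAT were higher, against 44.7%, and 96% in gWAT, against 55.8%. The share in gWAT was 71% with median centring and 36.2% with the slide as a block, and that in BAT was 31.4% without a filter. Over all genes, the 2522 calls in gWAT became 185 with the slide as a block, 1138 without a filter, 1381 with median centring, 1620 with the methods' t-test, 4027 with all arrays in one fit and 6022 with spike-in scaling, and 1078 to 3199 on leaving out 1 array. The 7159 calls of the interaction became 3263 with the slide as a block.

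Deviations of same-numbered arrays correlated at -0.141 to 0.431 between genotypes and at -0.186 to 0.294 between tissues, over 0.1 in 6 of the 8 pairs of tissues. Since not every pair did, and the labels name no animals, the numbers were not taken to pair the samples. With the replicate block, 19, 1, 8 and 23 of the integrin and laminin genes were called in BAT, gWAT, the interaction and between tissues, and 1085 of all genes in gWAT. Genes not well above background have only bounds.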
